A study of Danio rerio with 6 samples.

Results

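Integrins are adhesion receptors of the cell surface, each built from an alpha and a beta subunit, that bind matrix proteins or counter-receptors on other cells and link them to the actin skeleton. Leukocytes carry their own set, in which itgb2 encodes the beta chain shared by the leukocyte adhesion receptors and itgae and itgb7 encode, in mammals, the chains of a receptor for E-cadherin that holds T-cells in epithelia. Other subunits sort by ligand: collagen, laminin, or fibronectin and vitronectin, with the beta chain of itgb1 serving as partner in many of these receptors. The integrin genes were taken as every row of the deposited gene tables whose name starts with itga or itgb, which gave 35 genes of 31901. Of these, 33 are subunits, and itgb1bp1 and itgbl1 are not subunits although their names match.

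The libraries came from zebrafish in 3 groups of 2. The lck-IRF4;p53+/- group held tumor cells from fish with a heterozygous p53 mutation. These fish carried human IRF4 and the fluorescent protein mCherry driven by the zebrafish lck promoter, which the authors report as active in T-cells and B-cells. The lck-IRF4 group held tumor cells from fish with the same transgenes and no p53 mutation in the group name. The lck-mCherry group held normal thymus of control fish that carried mCherry alone under that promoter. In an RNA-seq figure with these groups, the paper labels lck-IRF4 and lck-mCherry fish as wild type for p53. Tumor cells were sorted on mCherry, and whether the control thymus cells were sorted too is not stated in the labels. The age of the control fish is not stated, so tumor origin, tissue and age cannot be told apart in any difference from the controls. Whether the libraries of a group came from separate fish is not stated, so the p-values measure the spread between these libraries. In lck-IRF4 libraries psmb8a had 0 and 5324 counts and psmb13a had 0 and 2963, gaps wider than technical copies of the same sample would give. Wide gaps also occurred elsewhere: hsd11b2 had 450 and 9 counts in lck-IRF4;p53+/- libraries, and optn had 1750 and 128 in lck-mCherry libraries. The technical part of the spread in these groups was not tested.

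Gene counts per library were recovered as whole numbers from the authors' mean normalized counts. Their totals were 6744362 and 6697130 in lck-IRF4;p53+/- libraries, 6904769 and 5196478 in lck-IRF4 libraries, and 6886247 and 6141016 in lck-mCherry libraries. At that depth a count of 3, taken as the floor, was worth between 0.384 and 0.555 CPM. This is the unit of level used here, in which counts are scaled by library size and TMM factor. The totals and the library sizes leave out 154 genes with a mean above 10000, so CPM values are higher than they would be over all genes. Correlations of log2 CPM across genes were between 0.884 and 0.916 for replicates, and between 0.778 and 0.864 for a tumor and a control library. The T-cell markers lck, themis and zap70 lay above the mean of 10000 up to which counts were recovered, and the other 7 T-cell markers recovered summed to 1351 and 2285 CPM in lck-IRF4;p53+/- libraries, 1784 and 2332 CPM in lck-IRF4 libraries, and 3126 and 2477 CPM in lck-mCherry libraries. That sum held mostly rag2 in some tumor libraries, up to 1631 CPM in lck-IRF4;p53+/- replicate 2, while edgeR called cd4-1, cd8a and cd8b lower in lck-IRF4;p53+/- tumors and cd8b lower in lck-IRF4 tumors. Of all genes tested, edgeR called 2.43% and 0.940% in these groups. Markers of other cell types were present as well. B-cell markers summed to 1448 and 1363 CPM in lck-IRF4;p53+/- libraries, 2667 and 2013 CPM in lck-IRF4 libraries, and 2288 and 2820.0 CPM in lck-mCherry libraries. In every library that sum was mostly cd74a and cd74b. The marker cd79b was at 0.144 and 0.424 CPM in lck-IRF4;p53+/- libraries, 9.86 and 8.57 CPM in lck-IRF4 libraries, and 1.85 and 0.555 CPM in lck-mCherry libraries. Of 8 B-cell markers tested, 2 had estimates above 0 in lck-IRF4;p53+/- tumors and 4 in lck-IRF4 tumors. Erythrocyte markers summed to 1854 and 202 CPM in lck-IRF4;p53+/- libraries, 1637 and 1406 CPM in lck-IRF4 libraries, and 284 and 637 CPM in lck-mCherry libraries. Macrophage markers summed to 306 and 697 CPM in lck-IRF4;p53+/- libraries, 90.1 and 80.0 CPM in lck-IRF4 libraries, and 31.0 and 58.7 CPM in lck-mCherry libraries. Epithelial markers summed to 286 and 454 CPM in lck-IRF4;p53+/- libraries, 488 and 93.2 CPM in lck-IRF4 libraries, and 79.1 and 77.8 CPM in lck-mCherry libraries. In such bulk libraries, fewer cells of a type and less RNA per cell cannot be told apart.

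Most of the integrin RNA in every library came from a few leukocyte genes. The 6 leukocyte rows (itga4, itgae.1, itgae.2, itgam, itgb2 and itgb7) held 82.4% (95% Wilson interval 81.8 to 83.0) and 90.1% (89.6 to 90.6) of the counts on integrin subunits in lck-IRF4;p53+/- libraries. They held 87.6% (87.1 to 88.1) and 87.6% (87.0 to 88.1) in lck-IRF4 libraries, and 90.9% (90.5 to 91.3) and 94.1% (93.6 to 94.6) in lck-mCherry libraries. The share was thus below both control values in all 4 tumor libraries, although lck-IRF4;p53+/- replicate 2 and lck-mCherry replicate 1 lay close to each other. Intervals here and below hold counting error alone, because PCR copies of a molecule were not told apart, and counts were not corrected for the length of each gene. The 27 subunits outside the leukocyte list summed to 347 and 198 CPM in lck-IRF4;p53+/- libraries, 269 and 303 CPM in lck-IRF4 libraries, and 322 and 100.0 CPM in lck-mCherry libraries. Their sums overlapped between the groups, with the control libraries farthest apart. Of the 35 genes, 16 had enough counts to be tested, 10 never exceeded 3 counts in any library, and 9 lay in between.

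**Figure D1:**
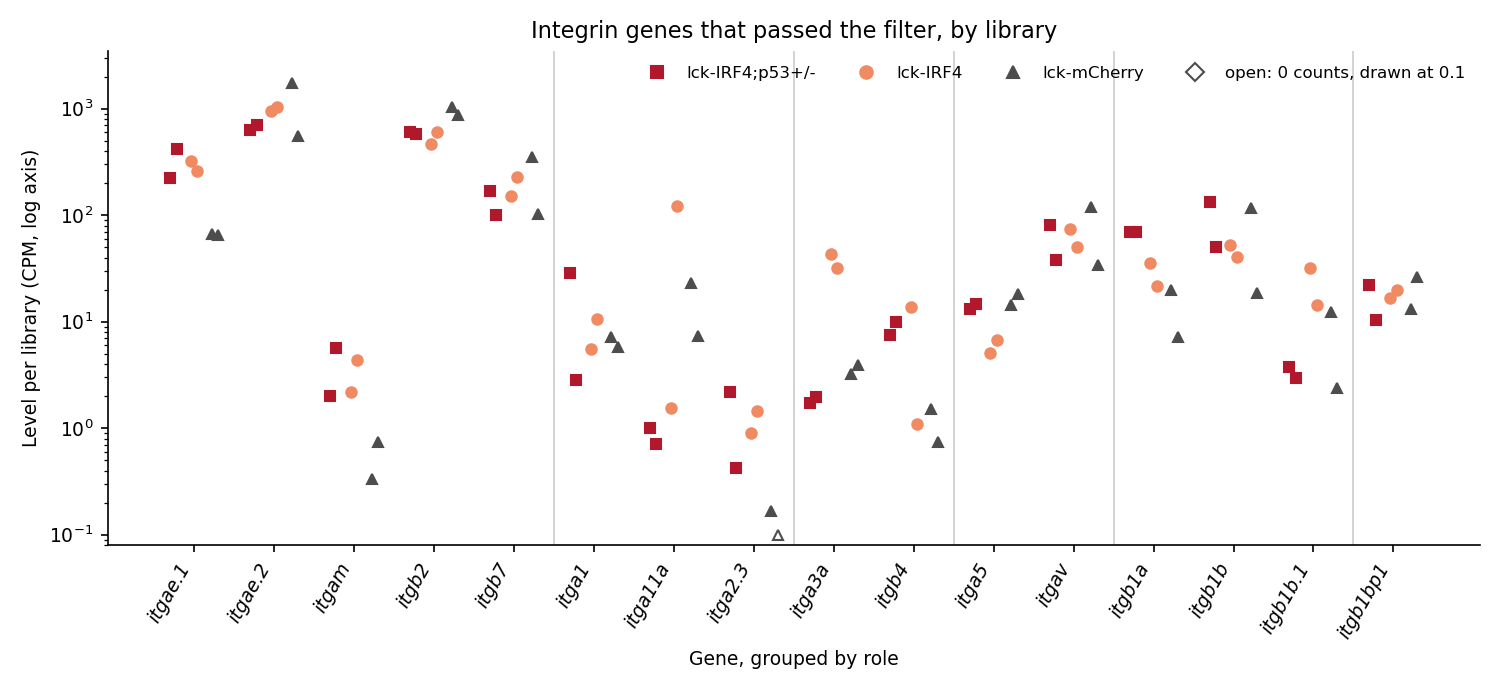
Level of the 16 integrin genes that passed the filter on low counts, in CPM on a log axis, with a point for each of the 6 libraries and vertical lines between roles. The tumor libraries stand above the controls for itgae.1 and itgam and below them for itgb2, and itga3a is high only in the lck-IRF4 libraries.

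Groups were compared by the quasi-likelihood method of edgeR in 1 fit over all 6 libraries, with p-values adjusted over 14046 genes and a call at an adjusted p under 0.05. Among the 16 integrin genes tested, 1 was called in lck-IRF4 tumors against lck-mCherry controls, itga3a, which was higher. Of all genes tested, 0.940% were called there. In lck-IRF4;p53+/- tumors against the same controls, 1 was called, itgae.1, also higher, beside 2.43% of all genes. Between lck-IRF4;p53+/- and lck-IRF4 tumors edgeR called none of the 16, beside 0.00712% of all genes. There, 3 of the 16 had an unadjusted p under 0.05, beside 6.76% of all genes. DESeq2, run on all 35 integrin genes without that filter, called 2, itga3a and itga11a. Beside this it called 1.98% of the 14304 genes to which it gave an adjusted p. Each share of all genes given for DESeq2 below is likewise a share of the genes with an adjusted p. How many integrin or list genes had one was not counted, so such counts and shares have unlike bases. Libraries of the groups did not overlap for 8 of 16 genes in lck-IRF4 against lck-mCherry, beside 46.9% of all genes. The same held for 8 of 16 in lck-IRF4;p53+/- against lck-mCherry, beside 50.0% of all genes, and for 6 of 16 in lck-IRF4;p53+/- against lck-IRF4, beside 38.9%. The share of integrin genes whose groups did not overlap was thus close to that of all genes in each comparison, and what follows concerns single members. The control libraries are shared by the comparisons of both tumor groups, whose results are therefore not independent.

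The leukocyte subunits did not move as a block. Of the 5 tested, itgae.1 and itgam had estimates above 0 in both tumor groups, and itgae.2, itgb2 and itgb7 had estimates below 0. Their median log2 fold change was -0.71 in lck-IRF4;p53+/- tumors, beside 0.027 over all genes tested, and -0.21 in lck-IRF4 tumors, beside -0.0011. The 10 other subunits tested had medians of 0.10 for lck-IRF4;p53+/- and 1.35 for lck-IRF4 tumors. With 5 and 10 genes that had to pass the filter, these medians only describe the lists.

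The clearest leukocyte member was itgae.1 (ENSDARG00000098012.2), a copy of the gene for the alpha chain of the E-cadherin receptor. Its level was 223 and 422 CPM in lck-IRF4;p53+/- libraries and 326 and 258 CPM in lck-IRF4 libraries, against 66.8 and 65.0 CPM in lck-mCherry libraries. Every tumor library was more than 3 times above both controls, and the tumor groups overlapped each other. In lck-IRF4;p53+/- tumors the gene rose 4.90-fold (log2 fold change 2.29 ± 0.43 SE, edgeR adjusted p = 0.0427). This call held without lck-IRF4;p53+/- replicate 1 and was lost without each other library, with edgeR adjusted p from 0.0555 to 0.183, while the log2 fold change stayed between 1.75 and 2.68. In lck-IRF4 tumors the estimate was nearly as large, at 2.15 ± 0.42 SE, and missed the threshold with an edgeR adjusted p = 0.0647. There it passed the threshold in DESeq2 (adjusted p = 0.000461). In that comparison DESeq2 called 2 of the 35 integrin genes entered, beside 9.78% of the genes with an adjusted p. Between the tumor groups the log2 fold change was 0.14 ± 0.40 SE (edgeR adjusted p = 1).

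The second copy, itgae.2 (ENSDARG00000057787.7), was the integrin gene with the most counts and did not follow the first. It stood at 632 and 704 CPM in lck-IRF4;p53+/- libraries and 953 and 1032 CPM in lck-IRF4 libraries, against 1734 and 556 CPM in lck-mCherry libraries. The controls enclosed all 4 tumor libraries. The log2 fold change was -0.78 ± 0.52 SE in lck-IRF4;p53+/- and -0.21 ± 0.51 SE in lck-IRF4 tumors (edgeR adjusted p = 0.455 and 0.882), and both estimates turned positive without lck-mCherry replicate 1, at 0.27 and 0.82. The balance between the copies can be read within each library, where scaling does not enter. Of the counts on both copies, itgae.1 held 26.1% (24.99 to 27.2) and 37.5% (36.4 to 38.6) in lck-IRF4;p53+/- libraries. It held 25.5% (24.6 to 26.4) and 20.02% (19.1 to 21.0) in lck-IRF4 libraries, against 3.71% (3.37 to 4.09) and 10.5% (9.47 to 11.5) in lck-mCherry libraries. All 4 tumor shares were above both control shares, by more than counting error. With 2 libraries on each side, the smallest two-sided p that exact permutation allows is 0.333, so the shares carry no test. How reads that fit several copies were counted is not stated for these libraries, so the split between copies is uncertain.

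The other chain of that receptor, itgb7, resembled itgae.2. Its level was 169 and 101 CPM in lck-IRF4;p53+/- libraries and 153 and 228 CPM in lck-IRF4 libraries, against 353 and 103 CPM in lck-mCherry libraries. All groups overlapped, and neither tumor group differed from the controls beyond their spread (log2 fold change -0.76 ± 0.60 SE in lck-IRF4;p53+/- and -0.26 ± 0.60 SE in lck-IRF4 tumors, edgeR adjusted p = 0.533 and 0.869). The control libraries themselves differed 3.44-fold for itgb7 and 3.12-fold for itgae.2, with replicate 1 higher for each. By contrast they differed 1.03-fold for itgae.1 and 1.19-fold for itgb2, where the median over all genes tested was 1.67-fold.

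The beta chain common to the leukocyte adhesion receptors, itgb2 (ENSDARG00000016939.11), was abundant in every library. It was measured at 600.0 and 576 CPM in lck-IRF4;p53+/- libraries and 471 and 611 CPM in lck-IRF4 libraries, against 1046 and 880.3 CPM in lck-mCherry libraries. Each tumor library lay below each control, by less than 3-fold. The log2 fold change was -0.71 ± 0.33 SE in lck-IRF4;p53+/- and -0.83 ± 0.33 SE in lck-IRF4 tumors, and neither passed the threshold (edgeR adjusted p = 0.287 and 0.237).

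The alpha chain itgam pairs with itgb2 in mammals and marks myeloid cells there. It was rare: 14 and 40 counts in lck-IRF4;p53+/- libraries and 17 and 24 counts in lck-IRF4 libraries, against 2 and 4 counts in lck-mCherry libraries. Neither tumor group overlapped the controls, while the tumor groups overlapped each other. The log2 fold change of 2.80 ± 1.04 SE in lck-IRF4;p53+/- and 2.56 ± 1.04 SE in lck-IRF4 tumors did not pass the threshold (edgeR adjusted p = 0.198 and 0.243). Granulocyte markers moved with it in part. Their sum was 84.1 and 118 CPM in lck-IRF4;p53+/- libraries and 125 and 12.9 CPM in lck-IRF4 libraries, against 13.8 and 9.07 CPM in lck-mCherry libraries. All 6 tested genes of that list had estimates above 0 in each tumor group. One of them, lyz, the lysozyme gene of granulocytes, was called by edgeR in lck-IRF4;p53+/- tumors, and mpx, their myeloperoxidase gene, had 0 counts in both controls. DESeq2 called lyz, mmp13a and npsn in lck-IRF4;p53+/- and in lck-IRF4 tumors, beside 10.1% and 9.78% of all genes. Of 6 tested macrophage markers, 3 were called higher in lck-IRF4;p53+/- tumors and none in lck-IRF4 tumors by edgeR, beside 2.43% and 0.940% of all genes. In lck-IRF4 tumors 2 had an unadjusted p under 0.05, beside 18.6% of all genes, and DESeq2 called 1, beside 9.78%. The part of these cells in the itgam values was not tested. The remaining leukocyte gene, itga4, encodes in mammals the alpha chain of lymphocyte homing receptors. It had 0 counts in both lck-IRF4;p53+/- libraries, 0 and 1 in lck-IRF4 libraries, and 3 and 0 in lck-mCherry libraries, so a difference was not detectable at this depth. Other leukocyte alpha chains of the list (itgal, itgax and itgad) were not analysed here.

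**Figure D2:**
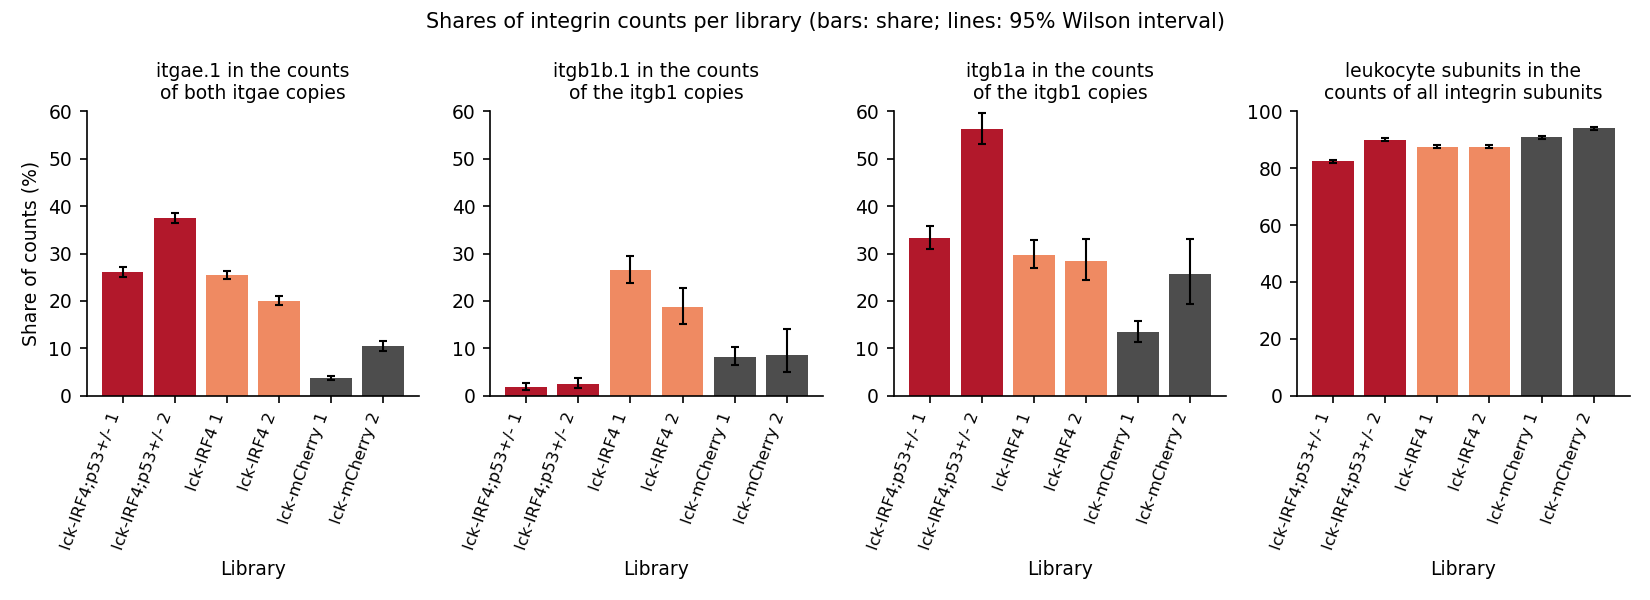
Share of counts in percent for each of the 6 libraries, with bars for the share and lines for the 95% Wilson interval, which covers counting error only. The itgae.1 share is 20.02% or more in tumor libraries and at most 10.5% in controls, and the itgb1b.1 share is lowest in the lck-IRF4;p53+/- libraries and highest in the lck-IRF4 libraries.

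Among subunits that bind laminin, itga3a (ENSDARG00000037917.7), an alpha chain known in mammals from epithelia, separated the tumor groups. It had 12 and 14 counts in lck-IRF4;p53+/- libraries and 336 and 175 counts in lck-IRF4 libraries, against 19 and 21 counts in lck-mCherry libraries. This corresponded to 1.73 and 1.98 CPM, 43.0 and 31.9 CPM, and 3.197 and 3.89 CPM in the same order of groups. Both lck-IRF4 libraries were thus far above the controls and both lck-IRF4;p53+/- libraries were below them, with replicates close to each other in each group. In lck-IRF4 tumors itga3a rose 10.5-fold (log2 fold change 3.40 ± 0.58 SE, edgeR adjusted p = 0.0491). That call was lost without either lck-mCherry library (edgeR adjusted p = 0.195 without replicate 1 and 0.156 without replicate 2) and without either lck-IRF4 library (0.173 and 0.0762), while the log2 fold change stayed between 3.19 and 3.58. In lck-IRF4;p53+/- tumors the log2 fold change was -0.92 ± 0.56 SE (edgeR adjusted p = 0.415). The direct comparison of lck-IRF4;p53+/- with lck-IRF4 tumors gave -4.32 ± 0.60 SE, a 19.98-fold difference whose unadjusted p was 0.000118 and whose edgeR adjusted p was 0.224. DESeq2 called this difference (adjusted p = 5.95e-09), where 2 integrin genes were called beside 1.98% of all genes. The sum of epithelial markers was 286 and 454 CPM in the lck-IRF4;p53+/- libraries, where itga3a was lowest. It was 488 CPM in lck-IRF4 replicate 1, where both were highest, and 93.2 CPM in lck-IRF4 replicate 2, where itga3a was 31.9 CPM. The part of epithelial cells in the itga3a values was not tested.

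The beta chain itgb4, which joins with a laminin-binding alpha chain in the attachment plaques of epithelial cells, had another pattern. It was at 7.51 and 9.90 CPM in lck-IRF4;p53+/- libraries and 13.7 and 1.09 CPM in lck-IRF4 libraries, against 1.51 and 0.741 CPM in lck-mCherry libraries. Thus 3 tumor libraries were high and lck-IRF4 replicate 2 was at the control level. The log2 fold change of 2.92 ± 1.18 SE in lck-IRF4;p53+/- and 2.70 ± 1.17 SE in lck-IRF4 tumors did not pass the threshold (edgeR adjusted p = 0.230 and 0.272), and without lck-IRF4 replicate 1 the second was -0.026. The same 3 tumor libraries had the highest sums of epithelial markers, among them 115.9 CPM of krt5 in lck-IRF4 replicate 1 against 9.48 CPM in replicate 2. Between these replicates krt4, epcam and cdh1 were likewise higher in replicate 1. In contrast, krt8 was at 47.1 and 43.9 CPM and cldni at 2.30 and 3.65 CPM in replicates 1 and 2. Of the 6 epithelial markers tested, 5 had estimates above 0 in each tumor group, and edgeR called krt8 in lck-IRF4;p53+/- tumors and none in lck-IRF4 tumors, where 2 had an unadjusted p under 0.05. DESeq2 called krt4, krt5 and krt8 in lck-IRF4;p53+/- tumors and krt4 in lck-IRF4 tumors. Of all genes, edgeR called 2.43% and 0.940% and DESeq2 10.1% and 9.78% in these groups, and 18.6% had an unadjusted p under 0.05 in lck-IRF4 tumors. The part of epithelial cells in the itgb4 values was not tested. The other laminin-binding chains were rare, with at most 12 counts for itga3b, at most 8 for itga6b and at most 4 for itga6a, and 0 counts of itga6l in every library.

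**Figure D3:**
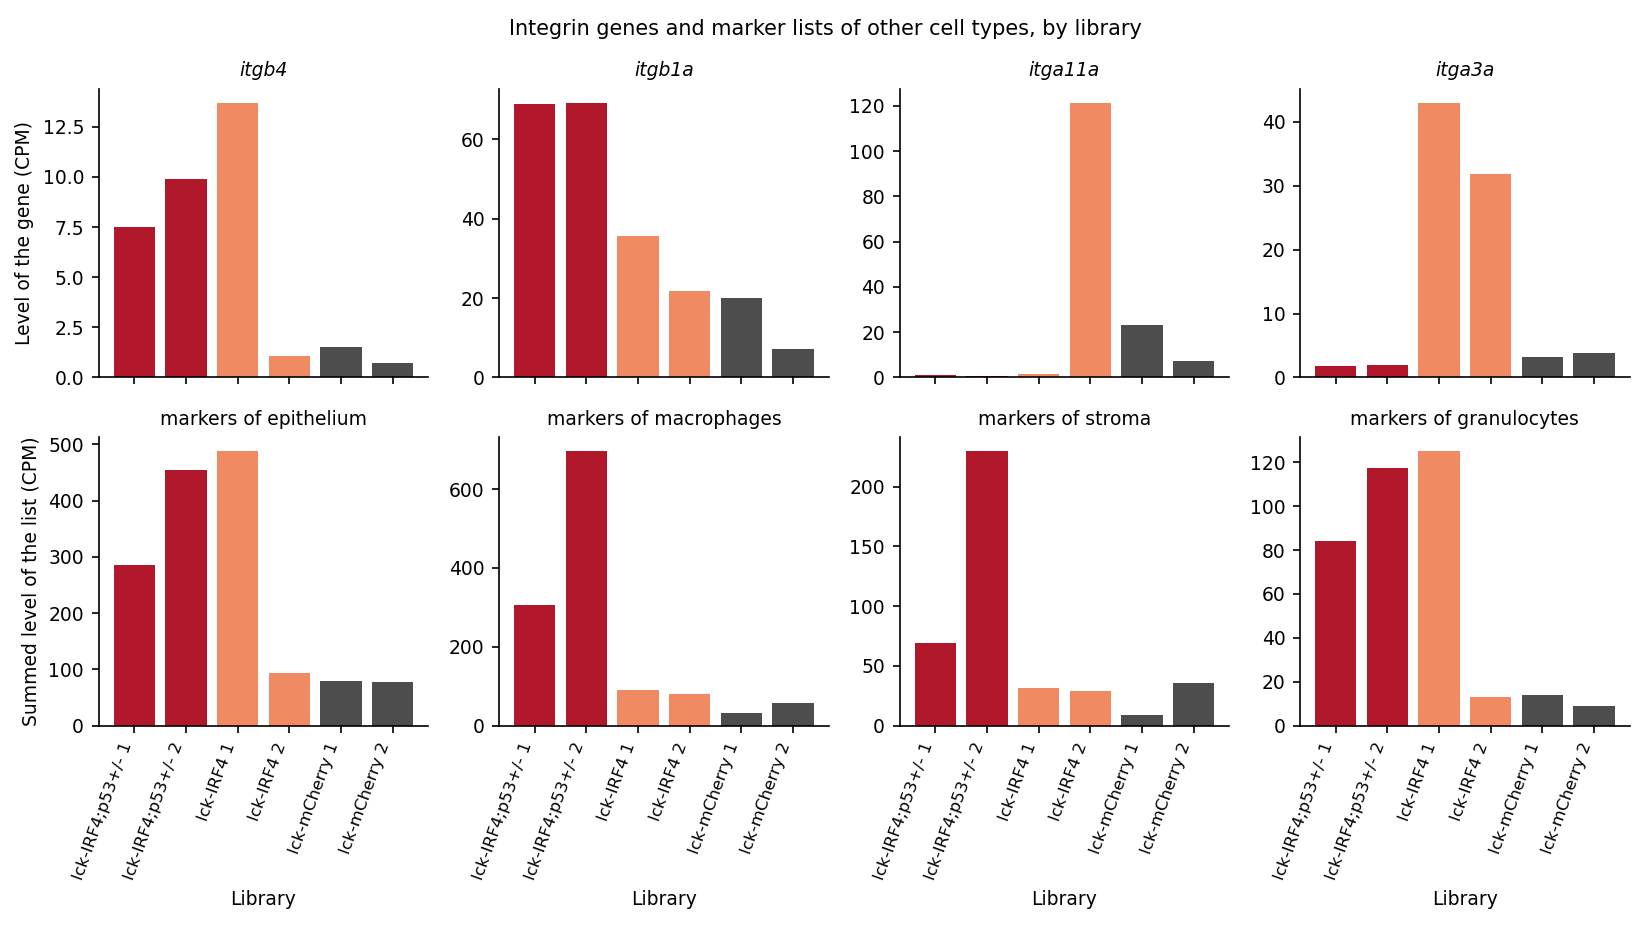
Upper panels give the level of 4 integrin genes and lower panels the summed level of 4 marker lists, in CPM, with a bar for each library. The epithelial sum and itgb4 are high in the same 3 tumor libraries, itga11a is high in lck-IRF4 replicate 2 alone at 121 CPM, and itga3a is high in both lck-IRF4 libraries.

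The beta chain that pairs with most matrix-binding alpha chains has several copies in zebrafish, and the copies did not follow each other between the tumor groups. The copy itgb1a stood at 68.9 and 69.2 CPM in lck-IRF4;p53+/- libraries and 35.6 and 21.7 CPM in lck-IRF4 libraries, against 20.03 and 7.22 CPM in lck-mCherry libraries. The groups did not overlap and were ordered lck-IRF4;p53+/-, lck-IRF4, lck-mCherry, although the lower lck-IRF4 library and the higher control were close. In lck-IRF4;p53+/- tumors the log2 fold change was 2.34 ± 0.60 SE and missed the threshold in edgeR (adjusted p = 0.0932), while DESeq2 called it (adjusted p = 0.00560) among 3 integrin genes, beside 10.1% of all genes. In lck-IRF4 tumors it was 1.07 ± 0.58 SE (edgeR adjusted p = 0.378). The macrophage and stroma sums were also highest in the lck-IRF4;p53+/- libraries, with stroma markers at 69.2 and 229.9 CPM there, 31.2 and 28.8 CPM in lck-IRF4 libraries, and 9.26 and 35.6 CPM in lck-mCherry libraries. In the lck-IRF4;p53+/- libraries the macrophage sum was mostly marco, at 172 and 525 CPM. The macrophage marker mpeg1.1 did not follow, at 7.80 and 2.55 CPM there, 8.70 and 7.29 CPM in lck-IRF4 libraries, and 6.39 and 2.41 CPM in lck-mCherry libraries. Of 6 macrophage markers tested, 5 had estimates above 0 in lck-IRF4;p53+/- against lck-IRF4 tumors. All 5 stroma markers tested had estimates above 0 in lck-IRF4;p53+/- tumors and 3 of 5 in lck-IRF4 tumors. In lck-IRF4;p53+/- tumors edgeR called col1a2, beside 2.43% of all genes, and DESeq2 called 4 of the 5, beside 10.1%. The part of these cells in the itgb1a values was not tested.

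The copy itgb1b.1 had its highest counts in the lck-IRF4 libraries, as itgb1a did not. It had 26 and 21 counts in lck-IRF4;p53+/- libraries and 247 and 78 counts in lck-IRF4 libraries, against 73 and 13 counts in lck-mCherry libraries. Against the controls both lck-IRF4 libraries were higher, as for itgb1a, with a log2 fold change of 1.64 ± 0.85 SE (edgeR adjusted p = 0.354). The lower lck-IRF4 library and the higher control were again close, at 14.2 and 12.3 CPM. Leaving out 1 library gave log2 fold changes from 0.88 to 3.22. The lck-IRF4;p53+/- libraries overlapped the controls, with -1.13 ± 0.86 SE (edgeR adjusted p = 0.514), which became 0.48 without lck-mCherry replicate 1. Between the tumor groups the log2 fold change was -2.76 ± 0.89 SE for itgb1b.1 (unadjusted p = 0.0152, edgeR adjusted p = 0.499) and 1.27 ± 0.58 SE for itgb1a (edgeR adjusted p = 0.791). It made up 1.82% (1.24 to 2.65) and 2.42% (1.59 to 3.67) of the counts on the 4 itgb1 copies in lck-IRF4;p53+/- libraries. The share was 26.5% (23.7 to 29.4) and 18.7% (15.2 to 22.7) in lck-IRF4 libraries, against 8.20% (6.57 to 10.2) and 8.55% (5.07 to 14.1) in lck-mCherry libraries. The shares of the 3 groups did not overlap and differed by more than counting error between lck-IRF4;p53+/- and lck-IRF4 libraries. As for the itgae copies, these shares carry no test and the split between copies is uncertain. Like itga3a, itgb1b.1 was thus lower in both lck-IRF4;p53+/- libraries than in either lck-IRF4 library. The third copy, itgb1b, differed 2.65-fold between the lck-IRF4;p53+/- libraries, 1.29-fold between the lck-IRF4 libraries and 6.34-fold between the controls. It was at 134 and 50.5 CPM in lck-IRF4;p53+/- libraries and 52.0 and 40.3 CPM in lck-IRF4 libraries, against 117 and 18.5 CPM in lck-mCherry libraries. The fourth, itgb1b.2, had 2 counts in lck-IRF4 replicate 1 and 0 elsewhere.

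Among collagen-binding alpha chains, itga11a was set by a single library. In mammals this chain is known from fibroblasts. It had 7 and 5 counts in lck-IRF4;p53+/- libraries and 12 and 666 counts in lck-IRF4 libraries, against 137 and 40 counts in lck-mCherry libraries. The lck-IRF4 libraries thus differed 79.1-fold from each other, and the log2 fold change of 2.01 ± 1.45 SE in lck-IRF4 tumors (edgeR adjusted p = 0.524) became -3.31 without replicate 2. The sum of stroma markers was 28.8 CPM in that library and 31.2 CPM in lck-IRF4 replicate 1, and the part of stromal cells in the itga11a values was not tested. Both lck-IRF4;p53+/- libraries were below both controls, with a log2 fold change of -4.12 ± 1.69 SE (edgeR adjusted p = 0.236, DESeq2 adjusted p = 0.0257). Against lck-IRF4 tumors the log2 fold change was -6.13 ± 1.81 SE (edgeR adjusted p = 0.431, DESeq2 adjusted p = 0.000827). This value became -0.83 without lck-IRF4 replicate 2. Of the other collagen-binding chains, itga1 was at 28.7 and 2.83 CPM in lck-IRF4;p53+/- libraries, 5.505 and 10.6 CPM in lck-IRF4 libraries, and 7.24 and 5.74 CPM in lck-mCherry libraries. The lck-IRF4;p53+/- libraries thus lay apart on both sides of the controls. Of the lck-IRF4 libraries, replicate 2 lay above the controls and replicate 1 close to their level. The copy itga2.3 had 15 and 3 counts in lck-IRF4;p53+/- libraries and 7 and 8 counts in lck-IRF4 libraries, against 1 and 0 counts in lck-mCherry libraries. Here itga2.1, itga11b and itga10 had at most 1 count in any library, and itga2.2 had at most 8.

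Of the subunits of fibronectin and vitronectin receptors, itga5, the alpha chain of the main fibronectin receptor, was lower in lck-IRF4 tumors only by estimate. It was at 13.1 and 14.6 CPM in lck-IRF4;p53+/- libraries and 5.12 and 6.75 CPM in lck-IRF4 libraries, against 14.3 and 18.3 CPM in lck-mCherry libraries. The lck-IRF4 libraries lay below all others, with a log2 fold change against the controls of -1.46 ± 0.56 SE (edgeR adjusted p = 0.221) and, for lck-IRF4;p53+/- against lck-IRF4, of 1.22 ± 0.55 SE (edgeR adjusted p = 0.782). The alpha chain of vitronectin receptors, itgav, was at 81.0 and 38.2 CPM in lck-IRF4;p53+/- libraries and 74.5 and 50.7 CPM in lck-IRF4 libraries, against 119.7 and 34.1 CPM in lck-mCherry libraries. Its groups overlapped fully. The 6 others were rare and were not tested. Of these, itgb6, known from epithelia in mammals, had 1 and 0 counts in lck-IRF4;p53+/- libraries and 5 and 0 counts in lck-IRF4 libraries, against 8 and 5 counts in lck-mCherry libraries. In the opposite sense, itgb3b had 7 and 6 counts in lck-IRF4;p53+/- libraries and 4 and 2 counts in lck-IRF4 libraries, against 0 and 0 counts in lck-mCherry libraries. These counts lie close to the floor. The thrombocyte chain itga2b had 2 and 3 counts in lck-IRF4;p53+/- libraries and 12 and 0 counts in lck-IRF4 libraries, against 0 and 0 counts in lck-mCherry libraries. Last, itgb1bp1, which encodes a regulator that binds the tail of the itgb1 chain, was at 22.1 and 10.5 CPM in lck-IRF4;p53+/- libraries and 16.6 and 19.9 CPM in lck-IRF4 libraries, against 13.3 and 26.3 CPM in lck-mCherry libraries, with all groups overlapping.

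**Figure D4:**
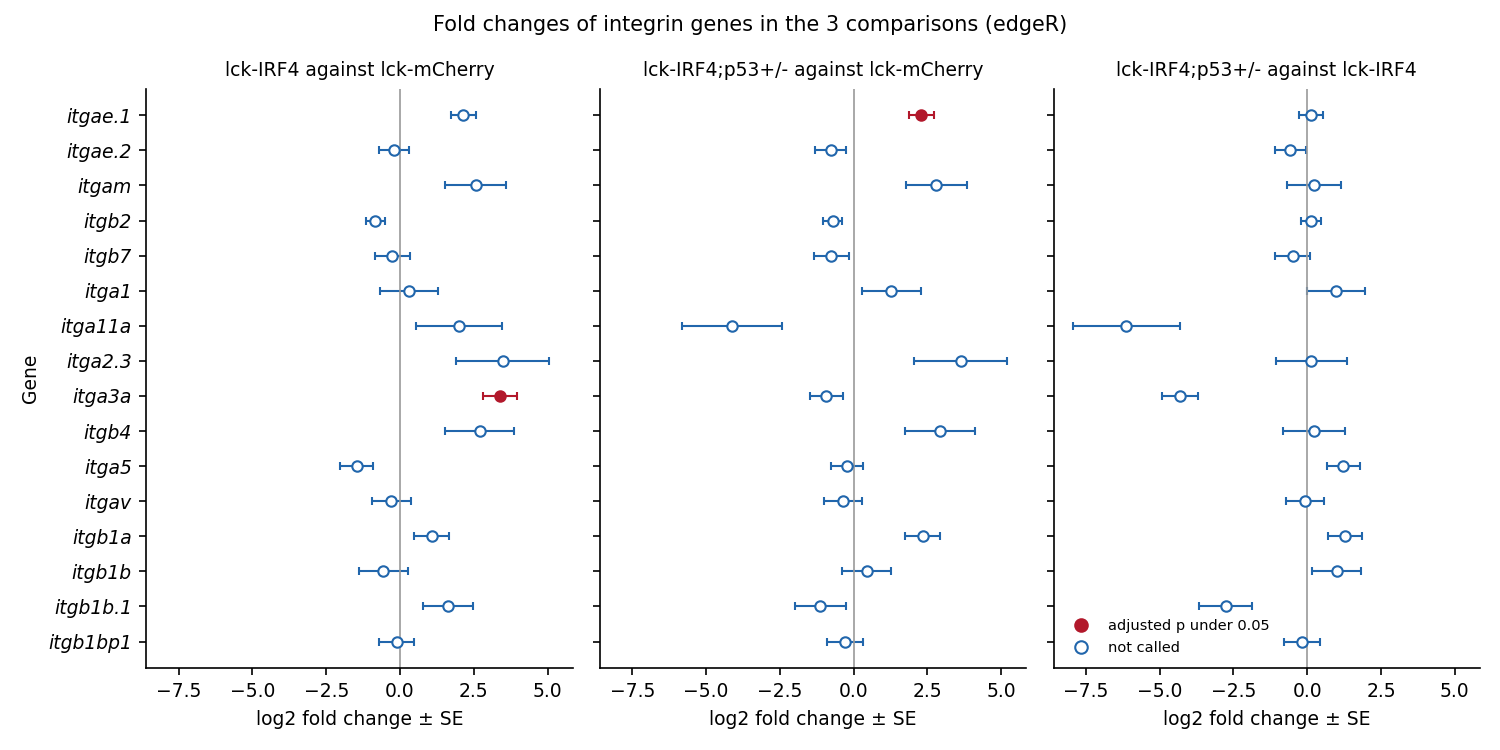
Log2 fold change with its standard error (edgeR, 1 fit over 6 libraries) for the 16 integrin genes tested, in lck-IRF4 against lck-mCherry, lck-IRF4;p53+/- against lck-mCherry and lck-IRF4;p53+/- against lck-IRF4. Filled points mark the 2 calls, itga3a at 3.40 in the first and itgae.1 at 2.29 in the second panel, and the third panel has itga11a and itga3a farthest below 0, at -6.13 and -4.32. Without lck-IRF4 replicate 2 these values were -0.83 for itga11a and -4.52 for itga3a.

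Genes that work with integrins were examined through 4 lists with 119 entries. Of 20 tested genes for activation and adhesion adaptors, 5 had an unadjusted p under 0.05 in lck-IRF4;p53+/- and 3 in lck-IRF4 tumors. Of all genes, 19.7% and 18.6% did. DESeq2 called 1 of the 20 in each tumor group, beside 10.1% and 9.78% of all genes. By edgeR 1 was called in each tumor group, beside 2.43% and 0.940% of all genes, and it was the same gene. This was flna, the gene of the actin cross-linker filamin, which binds integrin beta tails. Its level was 127 and 78.1 CPM in lck-IRF4;p53+/- libraries and 105 and 66.7 CPM in lck-IRF4 libraries, against 577 and 619.6 CPM in lck-mCherry libraries. It fell 5.83-fold in lck-IRF4;p53+/- and 6.96-fold in lck-IRF4 tumors (log2 fold change -2.54 ± 0.42 SE and -2.80 ± 0.43 SE, edgeR adjusted p = 0.0345 and 0.0418). None of 15 tested kinases and scaffolds and none of 14 tested genes of lymphocyte inside-out signalling, the route by which receptors on T-cells switch integrins on, was called by edgeR in any comparison. Unadjusted p-values under 0.05 were found for 4 of the first list and 4 of the second in lck-IRF4;p53+/- tumors, beside 19.7% of all genes, and for 5 and 5 in lck-IRF4 tumors, beside 18.6%. DESeq2 called 1 and 3 genes of these lists in lck-IRF4;p53+/- tumors, beside 10.1% of all genes, and 3 and 3 in lck-IRF4 tumors, beside 9.78%. Between lck-IRF4;p53+/- and lck-IRF4 tumors, 2 and 1 had an unadjusted p under 0.05, beside 6.76% of all genes, and DESeq2 called 0 and 1, beside 1.98%. The medians of these lists were 0.56 and -0.51 in lck-IRF4;p53+/- and 0.42 and -0.59 in lck-IRF4 tumors. Of the 25 entries of the inside-out list only 14 were tested, and lck and zap70 were among those not recovered. The DESeq2 calls of that list in each tumor group included mst1, which was matched by name alone, so its part in this route is uncertain.

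Of 13 tested ligand genes, edgeR called 3 in lck-IRF4;p53+/- tumors, beside 2.43% of all genes, and 1 in lck-IRF4 tumors, beside 0.940%. DESeq2 called 8 and 2 of them in these groups, beside 10.1% and 9.78% of all genes, and 2 between lck-IRF4;p53+/- and lck-IRF4 tumors, beside 1.98%, where edgeR called 0. Unadjusted p-values under 0.05 in edgeR were found for 9, 3 and 4 of the 13 in the same order, beside 19.7%, 18.6% and 6.76% of all genes. The fibronectin gene fn1a was at 60.1 and 65.5 CPM in lck-IRF4;p53+/- libraries and 10.1 and 15.9 CPM in lck-IRF4 libraries, against 1.01 and 0.370 CPM in lck-mCherry libraries. It rose in both tumor groups, with log2 fold changes of 6.45 ± 0.71 SE and 4.18 ± 0.66 SE (edgeR adjusted p = 0.0168 and 0.0447), while its receptor chain itga5 did not pass the threshold in either. The collagen gene col1a2 was called higher in lck-IRF4;p53+/- tumors (4.68 ± 0.90 SE, edgeR adjusted p = 0.0460), and as a stroma marker it is counted in the stroma sum above. The same holds for col1a1a and col1a1b, which were among the ligand genes that DESeq2 called in these tumors. The ligand and stroma lists are therefore not independent. The laminin gene lama5 was at 1.73 and 0.707 CPM in lck-IRF4;p53+/- libraries and 1.92 and 1.82 CPM in lck-IRF4 libraries, against 25.6 and 24.3 CPM in lck-mCherry libraries. It fell in lck-IRF4;p53+/- tumors (-4.33 ± 0.74 SE, edgeR adjusted p = 0.0356), and in lck-IRF4 tumors the estimate of -3.72 ± 0.71 SE had an edgeR adjusted p = 0.0610. The list median was 2.99 in lck-IRF4;p53+/- and 1.65 in lck-IRF4 tumors. Like every call by edgeR against the controls, these were lost when either lck-mCherry library was left out, since 0 genes were then called (2729 and 2869 had an unadjusted p under 0.05 for lck-IRF4;p53+/-, 2393 and 2776 for lck-IRF4).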

How the data were processed

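RNA of 6 libraries was sequenced on a BGISeq500. Per the submitters' processing notes, STAR 2.5.2a, featureCounts 1.6.1, DESeq2 1.12.4 and the genome build GRCz11 were used. The authors deposited whole-number counts per transcript for each library (10138258 to 12655373 in total) and, for each tumor group against the controls, a gene table with the mean of normalized counts (a signal) over 4 libraries. Fold changes, errors, statistics and p-values of the authors in these tables were not used. Nothing used here pairs transcripts with genes, and genome positions and sequences were not used.

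Each mean is a sum of 4 whole counts, each divided by its library's size factor. Gene counts were therefore solved from the means of both tables, whose control libraries are the same. All 31747 genes with a mean up to 10000 had exactly 1 solution, and 154 genes above it were left out. For 6199 of 6199 genes solved from each table alone, the control counts were equal. Only genes that already had 1 joint solution with shared controls were compared, so this equality is no separate check. Solved columns were tied to labelled libraries through the deposited transcript counts: 920 of 8033 genes lay near a transcript in the order used and 71 in the next best of 720 orders.

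Counts were tested with edgeR 4.0.16 in R 4.3.3 (quasi-likelihood, TMM, filterByExpr, 1 fit over 6 libraries, Benjamini-Hochberg over 14046 genes, biological coefficient of variation 0.535). Each SE given with an edgeR estimate is the absolute log2 fold change divided by the square root of its F statistic. It therefore restates the test. DESeq2 1.42.0 was an alternative. The procedure was tested on simulated data. Alternatives were other size factors, no filter, only the 4 libraries compared, a replicate block and leaving out each library. Shares have 95% Wilson intervals. All integrin genes are counted. Those given with values are the leukocyte integrins, members called in any comparison, the 10 others with the highest mean CPM and, where counts are given, rare members. Of the adhesion lists, genes called in any comparison are named, at most 6 per list. Members and lists were chosen with earlier results of these data known.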

Additional observations from a re-analysis of the deposited data

Results flagged for a closer look

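The gene itga3a had a log2 fold change of -4.32 for lck-IRF4;p53+/- against lck-IRF4 tumors, and it drew attention because the tumor groups lay on opposite sides of the shared controls. Both lck-IRF4;p53+/- libraries (1.73 and 1.98 CPM) were below both lck-mCherry libraries (3.197 and 3.89 CPM), while both lck-IRF4 libraries (43.0 and 31.9 CPM) were above them. The difference was tested directly and had an edgeR adjusted p = 0.224 over all genes and an adjusted p = 5.95e-09 in DESeq2. Groups of 2 libraries were not searched for single deviating samples.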

How the results depend on the processing

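With 2 libraries per group, counts of calls moved strongly with the procedure, and the cause was not tested. In the order lck-IRF4 against lck-mCherry, lck-IRF4;p53+/- against lck-mCherry and lck-IRF4;p53+/- against lck-IRF4, edgeR called 132, 341 and 1 genes, and 1, 1 and 0 integrin genes. Without the filter on low counts 1721, 1727 and 432 of 23074 genes and 2, 3 and 2 of 33 integrin genes were called. DESeq2 called 1399, 1484 and 283 genes, of 14304, 14742 and 14304 with an adjusted p. It called 2, 3 and 2 integrin genes, of 35 entered. A fit on the 4 libraries compared called 413, 482 and 0 of 12807, 12706 and 13457 genes. There 2, 0 and 0 of 14, 15 and 16 integrin genes were called. Leaving out 1 library gave 0 to 398, 0 to 371 and 0 to 2 genes, and 0 to 2, 0 to 1 and 0 to 0 integrin genes. In these fits the lone library of a group is assumed to vary like the others.

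With a replicate block 178, 316 and 0 genes and 0, 0 and 0 integrin genes were called (4 to 6 of 16 had an unadjusted p under 0.05 against the controls). Deviations of libraries with the same number correlated at 0.063, 0.224 and -0.031, so the numbers were not taken as pairs.

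Of 33 log2 fold changes of single genes, 322 of 362 alternative values kept direction and side of the threshold. Most of the 33 were not called in the main fit, and staying uncalled counts as kept. The call of itga3a in lck-IRF4 tumors held in 6 of 11 alternatives. That of itgae.1 in lck-IRF4;p53+/- tumors held in 4 of 11. The 14 values that changed direction all came from leaving out 1 library. Ranges then were -0.82 to 0.82 for itgae.2, -0.90 to 0.88 for itgb7, -3.31 to 3.05 for itga11a and -0.026 to 3.56 for itgb4 in lck-IRF4 against lck-mCherry. They were -1.41 to 0.27 for itgae.2, -1.42 to 0.39 for itgb7 and -1.90 to 0.48 for itgb1b.1 in lck-IRF4;p53+/- against lck-mCherry. They were -0.41 to 0.55 for itgae.1, -0.086 to 0.32 for itgb2, -0.71 to 0.81 for itgam and -0.66 to 2.94 for itgb4 in lck-IRF4;p53+/- against lck-IRF4. Counts per transcript were not run as an alternative, since no table used here pairs transcripts with genes.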

Other observations

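A further copy of the myeloid integrin chain carried another name in the deposited tables and so was no member. The gene listed as si:dkey-32n7.4 is named itgam.1 in the current name table. It was singled out after its values had been seen. It had 138 and 131 counts in lck-IRF4;p53+/- libraries and 196 and 148 counts in lck-IRF4 libraries, against 27 and 15 counts in lck-mCherry libraries. Every tumor library was more than 3-fold above both controls in CPM. The log2 fold change was 2.38 ± 0.55 SE in lck-IRF4;p53+/- and 2.82 ± 0.56 SE in lck-IRF4 tumors (edgeR adjusted p = 0.0734 and 0.0657), in the same direction as the member itgam.

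The control libraries differed from each other more for some integrin genes than for others. Replicate 1 was 6.34-fold higher for itgb1b, 5.10-fold for itgb1b.1, 3.51-fold for itgav and 2.77-fold for itgb1a, where the median over all genes tested was 1.67-fold in either direction. For itga5 and itga3a replicate 2 was higher, 1.28-fold and 1.22-fold.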
